A study of Mus musculus with 4 samples.

Results

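The Hox genes described here were 38 members of the mouse HoxA, HoxB, HoxC and HoxD clusters, listed by symbol, out of 24971 genes counted by RNA-seq in E12.5 mouse neural tube. They comprised 10 genes of cluster A, 10 of cluster B, 9 of cluster C and 9 of cluster D. They were chosen by name and not by a threshold on their values, but with earlier results of these data known. All 38 were found in the count files. The study set wild-type embryos, labelled WT, beside embryos labelled Lbx1Δ/Δ, both on the C57BL/6 background. There were 2 libraries per label, and each was made from the pooled neural tubes of embryos of 1 litter and 1 genotype. Lbx1 encodes a homeodomain protein of dorsal spinal cord and hindbrain neurons. The labels give neither the part of Lbx1 that was removed nor the stretch of the neural tube that was taken.

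Hox genes encode homeodomain transcription factors that give cells their position along the head-to-tail axis. In each cluster the genes lie in the order of their paralogue numbers, and in the spinal cord low-numbered genes are transcribed from the hindbrain backwards while higher-numbered genes start at thoracic, lumbar and sacral levels. Genes of the same number in different clusters are paralogues that descend from 1 ancestral gene and often act in overlapping ways. The set of Hox transcripts in a dissected neural tube therefore depends on which axial levels contributed RNA. Since low-numbered genes are transcribed from the hindbrain backwards, their reads do not name a single level. In motor neurons the same genes set column and pool identity. In pooled tissue, fewer cells of an axial level and less RNA per cell cannot be told apart.

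Library totals were between 16853984 and 20579803 counts, so that 3 counts, the number taken as the limit of a value of 0, equalled 0.146 to 0.178 CPM, counts scaled by the library total. Lbx1 had 819 and 1379 counts in WT libraries 1 and 2, and 1946 and 6520 counts in libraries 1 and 2 labelled Lbx1Δ/Δ. The libraries labelled mutant thus held more Lbx1 reads than the WT libraries. Since the removed part is not stated, these counts are no check of the genotype, and directions are given between libraries as they are labelled. Values in the 4 libraries are in the order WT 1, WT 2, Lbx1Δ/Δ 1 and Lbx1Δ/Δ 2 wherever no library is named.

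The 38 Hox genes together made up 0.264%, 0.435%, 0.331% and 0.50% of the counts of the 4 libraries, or summed levels of 2643, 4353, 3311 and 5003 CPM. Both libraries numbered 2 lay above both libraries numbered 1, by 1.65-fold within WT and 1.51-fold within Lbx1Δ/Δ, while the ranges of the 2 labels overlapped. Gene by gene, 27 of the 38 members had both number 2 libraries above both number 1 libraries. Among the 35 members that passed the filter on low counts and were tested, 26 did, against 34.1% of all genes tested. Hoxa2 and Hoxa13 were the 2 members with both number 2 libraries below. Of these only Hoxa2 was tested, which is 1 of the 35, against 31.9% of all genes tested. All 4 clusters contributed, with 7 of 10 members of cluster A, 8 of 10 of B, 7 of 9 of C and 5 of 9 of D above in number 2. The labels do not say what a replicate number stands for beyond the pooled litter.

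The profile over paralogue numbers had the same outline in every library up to number 10. Sums of reads, not corrected for transcript length, were at 10.0, 14.3, 15.6 and 10.6 CPM for paralogue 1 (Hoxb1 and Hoxd1), were larger at each number up to 5, and had their maximum at paralogue 9. Paralogue 9 was at 550.1, 958, 717 and 1115 CPM. The sums were 99.0, 243, 107 and 234 CPM at paralogue 10 and 6.03, 70.3, 39.2 and 43.4 CPM over paralogues 11 to 13. Most Hox reads thus came from the genes of hindbrain to thoracic levels, with those of lumbar and sacral levels present in every library but fewer.

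**Figure D1:**
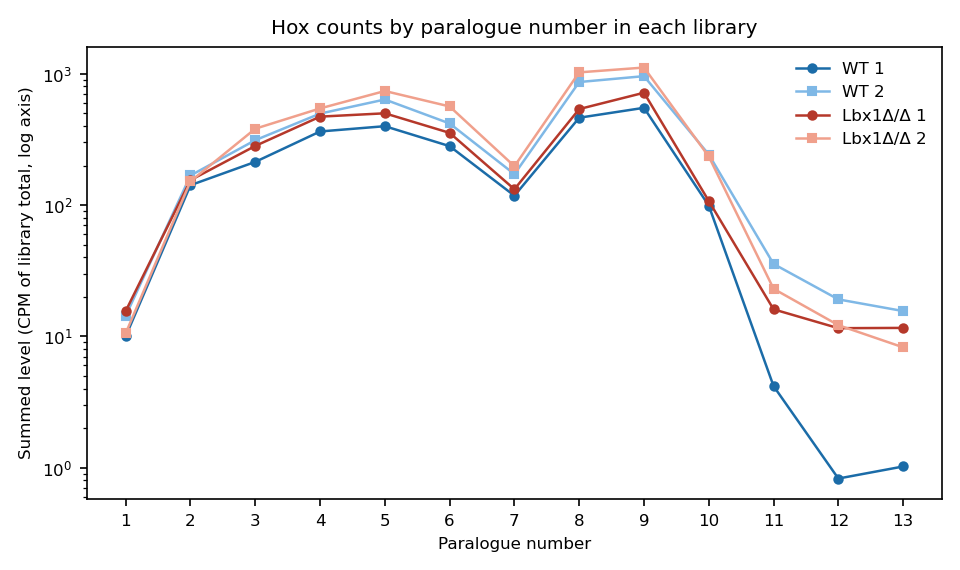
Summed level of the Hox genes of each paralogue number, in CPM of the library total on a log axis, with 1 line per library (circles, libraries numbered 1; squares, libraries numbered 2; blue, WT; red, libraries labelled Lbx1Δ/Δ). The lines run together to paralogue 10, where the number 2 libraries are at 243 and 234 CPM and the number 1 libraries at 99.0 and 107 CPM, and WT 1 separates downwards from the other libraries at paralogues 11 to 13.

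Levels of different genes were compared per kilobase of transcript (RPKM), for the 33 members counted as a single transcript. Hoxb9, a thoracic gene that helps to set where motor columns form, was the most abundant in every library at 276 ± 83.3 RPKM (SD, n = 4 libraries). Hoxb8 was next in every library at 199 ± 91.4 RPKM (SD, n = 4). Hoxb6, Hoxb5, Hoxc4, Hoxa5, Hoxc6 and Hoxc8 followed with means of 147, 124, 119, 111, 106 and 106 RPKM and SDs of 59.0, 50.8, 18.0, 29.6, 12.6 and 15.5 RPKM. Neighbours among these 6 differed by less than their SDs. Hoxb6 was above Hoxb5 in every library, while the order of the other neighbours changed between libraries and is not resolved. The lower end had a step, from Hoxd9 at 20.7 ± 9.64 RPKM (SD, n = 4) to Hoxc12 at 5.72 ± 4.87 RPKM (SD, n = 4). Below that step lay the single-transcript genes of paralogues 11 to 13 together with Hoxb1 at 2.68 and Hoxd1 at 3.77 RPKM, down to Hoxa13 at 0.205 and Hoxb13 at 0.120 RPKM.

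**Figure D2:**
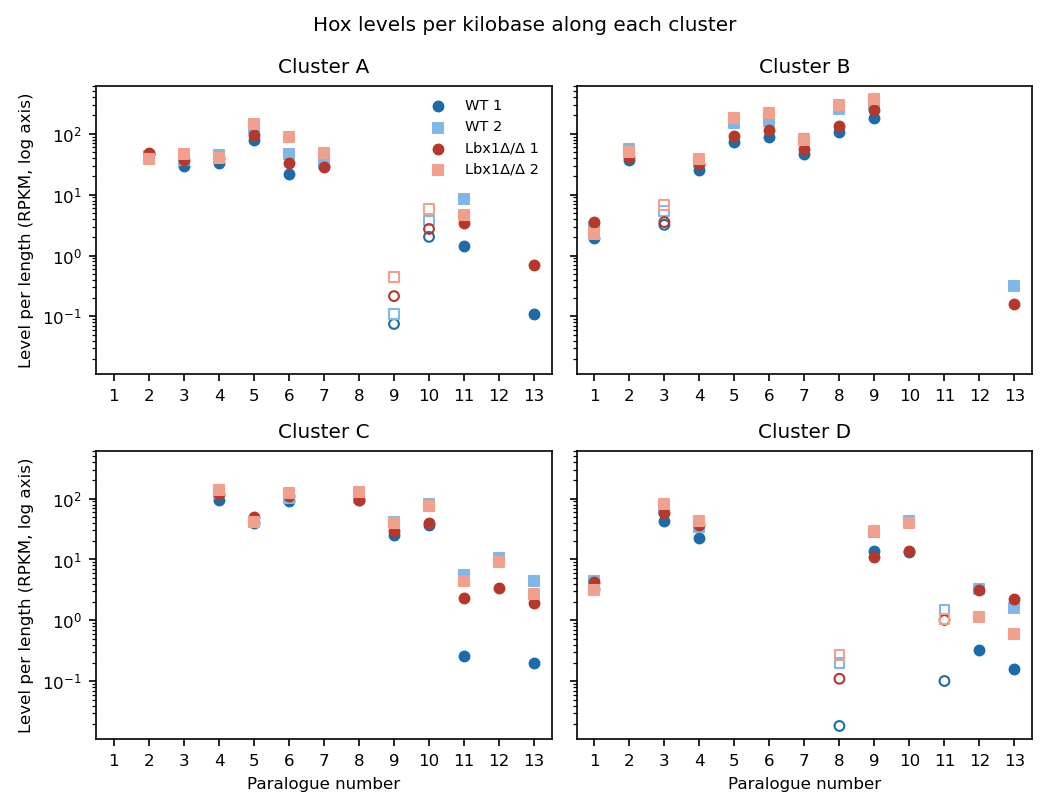
Level of each Hox gene per kilobase of its longest annotated transcript (RPKM, log axis) against paralogue number, with 1 panel per cluster; circles are libraries numbered 1, squares libraries numbered 2, blue WT and red libraries labelled Lbx1Δ/Δ. Open symbols are the 5 genes with several counted transcripts, whose levels are uncertain, and libraries with 0 counts are not drawn; Hoxb9 at 276 RPKM and Hoxb8 at 199 RPKM lead cluster B, clusters C and D are lower after paralogue 10, and in cluster A the genes from Hoxa9 on lie below Hoxa7 at 34.8 RPKM.

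The 5 genes with several counted transcripts, Hoxa9, Hoxa10, Hoxb3, Hoxd8 and Hoxd11, stood below their single-transcript paralogues per length. Hoxa9, with counts of 5, 6, 12 and 24, was at 0.211 ± 0.165 RPKM (SD, n = 4), against 20.7 RPKM for Hoxd9 and 34.1 RPKM for Hoxc9. In the annotation used here 0% of the exon bases of Hoxa9 belonged to 1 transcript alone, and for Hoxd8, with counts of 1, 9, 5 and 12, no transcript had more than 33.1% of its bases to itself. How reads shared by several transcripts were counted is not given in the sources used here, so the levels of these 5 genes are uncertain and were left out of the order above. Hoxa3 and Hoxa11 also share exon bases with the antisense transcripts Hoxaas2 and Hoxaas3 and Hoxa11os, which left 82.0% and 75.2% of their bases unique. With the strand setting of the counting unknown, reads of these overlapping pairs cannot be told apart.

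Paralogues 1 to 5, the genes of the hindbrain and cervical cord, summed to 1127, 1628, 1423 and 1826 CPM. Hoxa2 and Hoxb2 pattern the rhombomeres and their motor nuclei. Hoxa2 was at 82.2, 77.0, 86.2 and 68.8 CPM, lower in both number 2 libraries. Hoxb2 was at 59.4, 90.9, 68.5 and 82.7 CPM. Hoxb1, the rhombomere 4 gene, and Hoxd1 stayed between 3.98 and 8.14 CPM. Among paralogues 3, Hoxa3 was at 75.2, 96.6, 95.8 and 119 CPM and Hoxd3 at 128, 198, 175 and 241 CPM, both highest in Lbx1Δ/Δ 2 and lowest in WT 1.

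Paralogues 4 and 5, which mark the cervical cord and the phrenic motor column, differed in how the clusters compared. Hoxc4 was at 187, 249.5, 234 and 271 CPM and Hoxb4 at 64.3, 88.8, 81.6 and 100.5 CPM. Their ratio hardly moved, with 0.344, 0.356, 0.349 and 0.371 Hoxb4 counts per Hoxc4 count. Hoxa4 ranged from 53.8 to 72.4 CPM, and Hoxd4 was at 58.3, 86.3, 92.9 and 109 CPM. Hoxb5 was at 137, 282, 176 and 347 CPM, while Hoxc5, which works with Hoxa5 in phrenic motor neurons, was at 114, 121, 145 and 121 CPM. The libraries numbered 2 thus had 2.33 and 2.88 Hoxb5 counts per Hoxc5 count and those numbered 1 had 1.199 and 1.21. Hoxa5 was at 147, 233.5, 178 and 272 CPM, between these 2 patterns.

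Paralogues 6 to 9, the genes of the brachial to thoracic cord, summed to 1411, 2413, 1741 and 2899 CPM and were the largest block of Hox RNA in each library. In summed CPM the difference between replicate numbers was carried mainly by cluster B. Gene by gene, Hoxa6 and Hoxd9 also differed, by log2 1.06 and 1.04 in WT and by 1.43 for each in Lbx1Δ/Δ. Hoxb8, a gene of the brachial and thoracic cord, was at 285, 671, 358 and 784 CPM, so that number 2 exceeded number 1 by 1.24 on the log2 scale in WT and by 1.13 in Lbx1Δ/Δ. Hoxc8, which sets the pools of caudal brachial motor neurons, was at 177, 193, 180 and 240 CPM, with log2 differences of 0.12 and 0.41. Hoxb6 was at 116, 217, 153 and 294 CPM and Hoxc6, the gene of limb-innervating brachial motor neurons, at 146, 161, 173 and 193 CPM. The counts per Hoxc6 count were 0.794, 1.34, 0.883 and 1.52 for Hoxb6, and the counts per Hoxc8 count were 1.61, 3.47, 1.98 and 3.27 for Hoxb8. These ratios are taken within a library and do not depend on how libraries are scaled to each other.

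At paralogue 9 the ratio of the cluster B gene to the cluster C gene did not separate the replicate numbers. Hoxb9 was at 460.5, 799, 622 and 955 CPM and Hoxc9, which sets thoracic motor neuron fate, at 59.7, 97.8, 70.6 and 95.5 CPM. The ratio of Hoxb9 to Hoxc9 counts was 7.71, 8.18, 8.81 and 10.0. Hoxb7 was at 59.4, 104, 73.8 and 101.5 CPM and Hoxd9 at 29.7, 60.9, 23.2 and 62.7 CPM, both following the replicate number. Hoxa7 stayed between 58.1 and 67.7 CPM in 3 libraries and was at 95.9 CPM in Lbx1Δ/Δ 2. Hoxa6 had the largest ratio of the highest to the lowest library among the cluster A genes with a single transcript below paralogue 11, at 19.3, 40.2, 28.5 and 76.6 CPM. As a result, cluster B held 45.2% and 46.9% of all Hox counts in the number 1 libraries and 52.3% and 53.8% in the number 2 libraries, while cluster C held 28.6% and 26.9% against 23.2% and 21.8%.

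**Figure D3:**
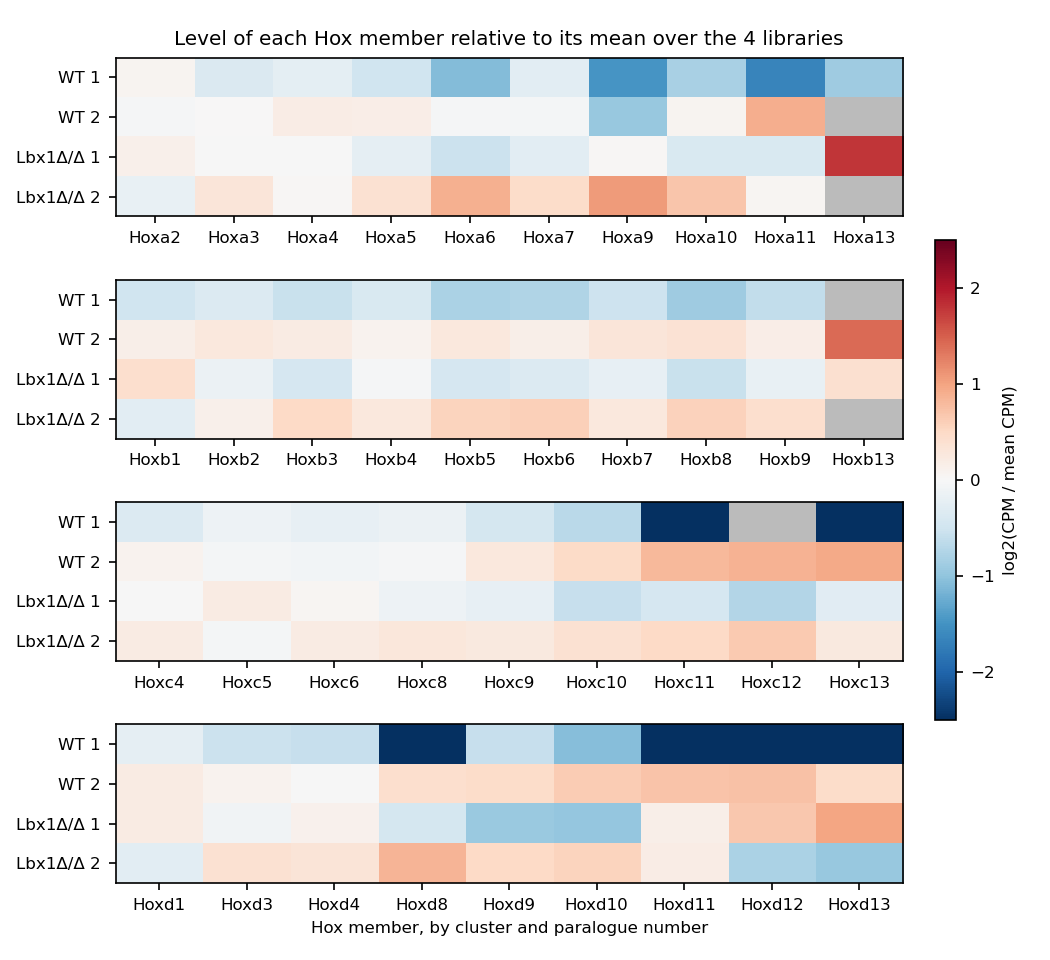
Level of each of the 38 Hox genes in each library relative to that gene's mean over the 4 libraries, as log2 of CPM over mean CPM, with 1 panel per cluster. Grey cells have 0 counts and the colour scale ends at 2.5 in either direction; WT 1 is at the lower end for Hoxc11, Hoxc13, Hoxd8, Hoxd11, Hoxd12 and Hoxd13, and the number 2 libraries are the redder ones in the middle of cluster B.

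Paralogue 10 genes, which specify lumbar motor neurons and hindlimb innervation, separated the replicate numbers. Hoxc10 was at 70.1 and 156 CPM in WT 1 and WT 2 and at 75.0 and 147 CPM in Lbx1Δ/Δ 1 and 2. Hoxd10 was at 23.8, 77.0, 25.3 and 72.8 CPM, 1.70 on the log2 scale above number 1 within WT and 1.52 within Lbx1Δ/Δ. Hoxa10 had 107, 163, 121 and 250 counts. Within a number the summed levels of the 2 labels were close, at 99.0 and 107 CPM in number 1 and 243 and 234 CPM in number 2. The log2 differences of these sums were 0.12 and −0.05. Hoxa10, a small part of the sum and of uncertain level, was higher in Lbx1Δ/Δ by 0.43 and 0.62 on the log2 scale.

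Paralogues 11 to 13, the genes of the lumbosacral and tail levels, also had higher sums in both number 2 libraries, but within a number the labels were not close. They had 124 counts in WT 1 against 1191, 676 and 732 in WT 2, Lbx1Δ/Δ 1 and Lbx1Δ/Δ 2. WT 1 had the fewest counts of Hoxa11, Hoxc11, Hoxc12, Hoxc13, Hoxd11, Hoxd12 and Hoxd13, which are 7 of the 9 members. The other 2 had few counts anywhere, with 3, 0, 16 and 0 for Hoxa13 and 0, 12, 6 and 0 for Hoxb13. Relative to paralogue 10, whose level in WT 1 was near that in Lbx1Δ/Δ 1, paralogues 11 to 13 had 6.08% as many counts in WT 1, 29.0% in WT 2, 36.5% in Lbx1Δ/Δ 1 and 18.5% in Lbx1Δ/Δ 2. WT 1 was thus near Lbx1Δ/Δ 1 at paralogue 10 and below it at higher numbers.

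Over paralogues 11 to 13, WT 2 had the highest sum in clusters A and C. In cluster D, WT 2 and Lbx1Δ/Δ 1 were close to each other and above the other libraries. The order of the libraries labelled Lbx1Δ/Δ differed between C and D. Hoxc11 had counts of 11, 188, 82 and 150, Hoxc12 of 0, 183, 61 and 156, and Hoxc13 of 10, 186, 81 and 114. Both number 2 libraries were above both number 1 libraries for each of Hoxc11, Hoxc12 and Hoxc13. With its value in WT 1 set to 3 counts, Hoxc12 was at least 74.1-fold lower there than in WT 2, at least 24.3-fold lower than in Lbx1Δ/Δ 1 and at least 63.5-fold lower than in Lbx1Δ/Δ 2. In cluster D, Hoxd12 had counts of 17, 141, 138 and 49 and Hoxd13, a gene of the most caudal levels, of 8, 66, 97 and 25, with Lbx1Δ/Δ 1 above Lbx1Δ/Δ 2. Hoxd11 had 7, 86, 59 and 59. Cluster D genes of these numbers summed to 1.55, 17.3, 17.0 and 7.89 CPM and cluster C genes to 1.02, 32.9, 12.99 and 24.9 CPM.

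Whether reads of paralogues can be told apart bears on such comparisons, since paralogues of 1 number are most alike in the homeobox, the 180 bases that code for the DNA-binding domain. The homeoboxes of the 3 paralogue 11 genes and of Hoxc10 are shown because Hoxa11, Hoxc11 and Hoxd11 carry the contrast between WT 1 and the other libraries while Hoxc10 does not. They were read 5′ to 3′ from GENCODE transcripts of GRCm38, at transcript positions 812 to 991 of Hoxa11, 793 to 972 of Hoxc11, 268 to 447 of Hoxd11 and 864 to 1043 of Hoxc10. Capitals mark the bases that differ from Hoxa11.
Hoxa11: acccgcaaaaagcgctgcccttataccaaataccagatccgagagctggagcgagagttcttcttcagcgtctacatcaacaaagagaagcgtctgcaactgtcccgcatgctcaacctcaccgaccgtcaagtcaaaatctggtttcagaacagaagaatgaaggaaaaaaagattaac
Hoxc11: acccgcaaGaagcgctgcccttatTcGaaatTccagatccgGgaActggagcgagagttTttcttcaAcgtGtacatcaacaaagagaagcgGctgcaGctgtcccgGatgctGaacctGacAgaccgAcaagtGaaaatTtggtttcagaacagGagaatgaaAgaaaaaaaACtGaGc
Hoxd11: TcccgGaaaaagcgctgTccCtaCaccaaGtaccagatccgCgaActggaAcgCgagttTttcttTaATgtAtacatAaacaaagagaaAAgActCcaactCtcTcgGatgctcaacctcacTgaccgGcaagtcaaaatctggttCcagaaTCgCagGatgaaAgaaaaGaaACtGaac
Hoxc10: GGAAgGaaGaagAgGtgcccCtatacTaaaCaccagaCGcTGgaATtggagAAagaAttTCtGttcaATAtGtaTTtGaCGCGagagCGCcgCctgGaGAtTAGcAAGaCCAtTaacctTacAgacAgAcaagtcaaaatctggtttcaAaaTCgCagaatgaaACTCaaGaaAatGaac
Hoxc11 differed from Hoxa11 at 24 bases (86.67% identity), Hoxd11 at 35 (80.56%) and Hoxc10 at 66 (63.33%). Over all 38 genes, the 40 pairs of the same number in different clusters had a median identity of 80.56% (range 67.22% to 93.89%) and the 28 pairs of adjacent numbers in a cluster 71.11%. The longest run of identical bases between transcripts of any 2 members was 52 bases, in the pair Hoxa6 and Hoxb4, and the median over 703 pairs was 15 bases. A read longer than 52 bases that matches without error therefore matches only 1 of the transcripts compared. Neither the read length nor the aligner's options are given in the sources used here.

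Non-coding transcripts and flanking genes of the clusters were read beside the Hox genes. Hotair, transcribed from cluster C between Hoxc11 and Hoxc12, had counts of 3, 157, 29 and 49, with the same lowest and highest library as Hoxc11. Hoxa11os, the antisense transcript of Hoxa11, had 48, 190, 114 and 140 counts, in the order of Hoxa11 itself at 68, 329, 136 and 179. Of 2 transcripts of the lower-numbered ends, Hotairm1 did not have that order, at 9.67, 9.26, 12.75 and 12.8 CPM. Haglr had the order of Hoxa11 in CPM, at 42.1, 61.7, 48.2 and 51.3 CPM, over a narrower range. Hottip, at the Hoxa13 end, had 0 counts in all 4 libraries. Evx1, next to the high-numbered end of cluster A and expressed in V0 interneurons, was at 12.9, 19.9, 18.6 and 18.5 CPM, and Evx2, at the same end of cluster D, at 12.4, 14.4, 12.1 and 18.7 CPM. WT 1 was the lowest of the 4 libraries for Evx1 but not for Evx2.

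Between the labels, no Hox gene passed the test of genotype alone. In edgeR's quasi-likelihood test of all 10757 genes tested, 0% of genes were called at an adjusted p of 0.05, and 0 of the 38 Hox genes. At an unadjusted p under 0.05 there were 55 genes, 0.511% of those tested, of which 1 was a Hox gene, Hoxa9 (log2 difference 1.80, SE 0.64), whose counts are uncertain. DESeq2 called 0 genes. Of the 38 members, 35 passed the filter on low counts and Hoxa13, Hoxb13 and Hoxd8 did not. Fitted values were higher in the libraries labelled Lbx1Δ/Δ for 26 members and lower for 9, with a median of 0.24 on the log2 scale, against 49.5% of all genes with a higher value and a median of −0.0026. With 1 library left out, between 14 and 34 of these 35 members had higher values. The number was 14 without WT 1 and 14 without Lbx1Δ/Δ 2. Each such fit leaves the labels unequal in replicate number, and 26 of the 35 were above in number 2. These counts therefore cannot tell label from number, and the direction of the group is not settled by them. Within numbers 1 and 2 the summed Hox level was higher in Lbx1Δ/Δ by 0.33 and 0.20 on the log2 scale, with 1 library per label.

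Library by library, 3 of the 35 Hox genes tested had both libraries labelled Lbx1Δ/Δ above both WT libraries, against 11.3% of all genes tested. In contrast, 0 had both below, against 9.31%. The 3 were Hoxa9, Hoxc6 and Hoxd4. Hoxc6 was at 154 ± 10.99 CPM in WT and 183 ± 14.1 CPM in Lbx1Δ/Δ (SD, n = 2 each), and its fitted log2 difference was 0.24 (SE 0.15). Hoxd4 was at 72.3 ± 19.8 and 101 ± 11.1 CPM (SD, n = 2 each), with a fitted log2 difference of 0.46 (SE 0.24). Both had an edgeR adjusted p of 0.9998. A share of 3 in 35 is below that of all genes tested.

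Within the replicate numbers, signs were counted for each axial block. By sign alone, 17 of the 38 genes were higher in Lbx1Δ/Δ in both numbers, and 18 were higher in number 1 and lower in number 2. Among the 35 members tested these were 16 and 17, against 30.3% and 20.2% of all genes tested. Of the 14 genes of paralogues 1 to 5, 8 were higher in both and 6 had opposite signs, and of the 12 genes of paralogues 6 to 9, 8 were higher in both. Among the 9 genes of paralogues 11 to 13, 8 were higher in number 1 and lower in number 2, and 0 were higher in both. Their summed level was 2.70 higher on the log2 scale in Lbx1Δ/Δ within number 1 and lower by 0.69 (log2 −0.69) within number 2. The first of these values rests on WT 1. Each number had 1 library per label, so these differences within numbers have no replicate check. Over all 4 libraries the log2 difference of the summed level was 0.11, without WT 2 it was 2.78 and without WT 1 it was −0.77.

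**Figure D4:**
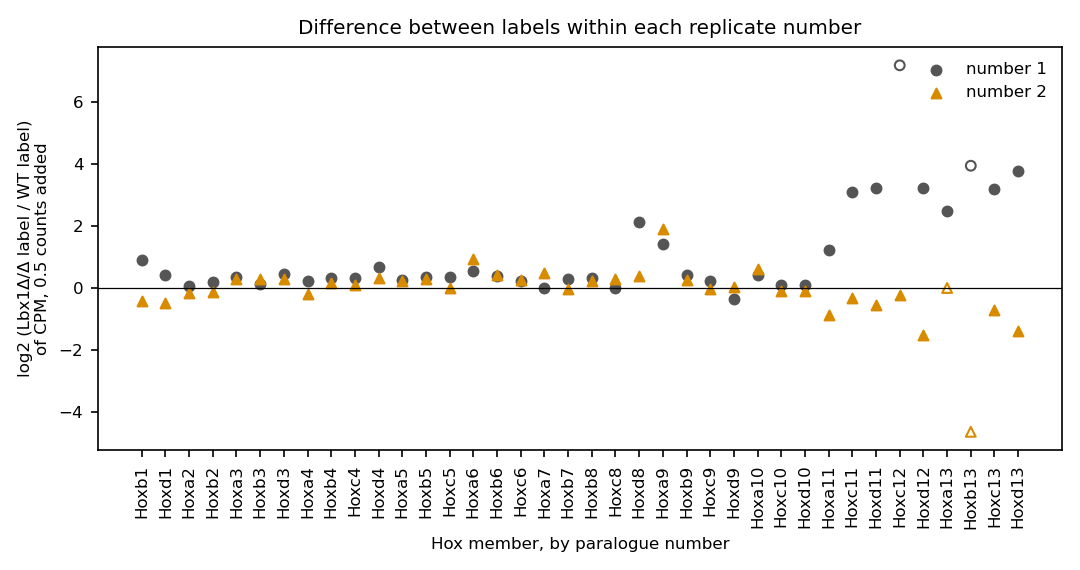
Difference between the libraries labelled Lbx1Δ/Δ and WT within replicate number 1 (circles) and number 2 (triangles) for each Hox gene, as log2 of the CPM ratio with 0.5 counts added, in order of paralogue number; open symbols have 0 counts in at least 1 of the libraries compared, and their heights depend on the counts added. Genes of paralogues 1 to 10 lie within 1 of 0 in both numbers, except Hoxa9 and Hoxd8 with their low counts, and those of paralogues 11 to 13 lie above 0 in number 1, while in number 2 all but Hoxa13, at 0 counts in both libraries, lie below 0.

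The make-up of the Hox RNA also did not separate the labels. Paralogues 10 to 13 held 3.98% (95% exact binomial interval 3.81 to 4.14) and 7.19% (7.001 to 7.37) of Hox counts in WT 1 and WT 2, and 4.43% (4.26 to 4.60) and 5.55% (5.396 to 5.71) in Lbx1Δ/Δ 1 and 2. These intervals cover no more than counting error. They may be too narrow even for that, since reads without molecular identifiers are not independent molecules. The means were 5.58% ± 2.27 in WT and 4.99% ± 0.794 in Lbx1Δ/Δ (SD, n = 2 each; two-sided exact permutation test p = 1, where 2 against 2 libraries cannot give less than 0.333). Paralogues 11 to 13 alone held 0.228%, 1.61%, 1.18% and 0.868% of Hox counts, or 0.921% ± 0.980 in WT and 1.03% ± 0.223 in Lbx1Δ/Δ (SD, n = 2 each; same exact permutation test, p = 1). The spread between the WT libraries was larger than the difference between the labels for both shares. Paralogues 1 to 5 held 42.6%, 37.4%, 43.0% and 36.5% and paralogues 6 to 9 held 53.4%, 55.4%, 52.6% and 58.0%, which separated the replicate numbers and not the labels.

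Genes that act on or with Hox proteins were described from lists fixed beside the members, and 0 of them were called. Of 9 genes of the TALE family, whose Pbx and Meis proteins bind DNA together with Hox proteins, 4 were tested, 1 with a higher and 3 with a lower fitted value (median −0.02). Pbx2 was at 327, 220, 320 and 219 CPM, below in number 2 where Hox genes were above. Of 16 inducers and axial regulators, 10 were tested, 7 higher and 3 lower (median 0.12). Gdf11, a secreted factor that promotes the trunk-to-tail Hox transition, was at 138, 167, 154 and 185 CPM. Aldh1a2, which makes the retinoic acid that induces low-numbered Hox genes, was at 156, 178, 185 and 180 CPM, and the retinoic acid receptor gene Rara at 5.30, 6.79, 9.68 and 11.3 CPM (log2 0.79, SE 0.30, edgeR adjusted p = 0.9998). Of 22 genes of the Polycomb and trithorax groups, which keep Hox genes silent or active, 14 were tested, 9 higher and 5 lower (median 0.05). Kmt2a, the trithorax-type methyltransferase gene, was at 224, 333, 264 and 313 CPM and Bmi1 of Polycomb at 213, 271, 206 and 267 CPM. Ezh2 and Suz12, chosen after their values were seen, were listed at 0 in all libraries, as was Cdx2. So was Pax6, a gene of neural progenitors, also chosen after its values were seen. A value of 0 in these files, here and for Hottip, Tbx4 or Dmbx1, therefore cannot be read as absence of the transcript.

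Marker lists of the neural tube and of other tissues also differed between replicate numbers. Neural tube markers summed to 3711, 5276, 3989 and 6282 CPM, with the neuronal tubulin gene Tubb3 at 1766, 3048, 2021 and 3748 CPM. Nes, a gene of neural progenitors, was at 1175, 996, 1073 and 1069 CPM, lower in both number 2 libraries. Olig2, also a progenitor gene, was higher in both, at 3.50, 6.67, 4.35 and 7.95 CPM. Progenitor genes thus did not share a direction. Of the 7 members tested, 4 were above and 2 below in number 2. The sum thus follows its most abundant neuronal genes and not the list as a whole. Genes of segmental motor neuron identity summed to 383, 646, 428 and 684 CPM, and 7 of the 7 tested had both number 2 libraries above both number 1 libraries, against 34.1% of all genes tested. Hindbrain genes summed to 193, 273, 175 and 244 CPM, but 1 member, Gbx2, carried that order at 58.6, 127, 53.6 and 116 CPM. Of the 6 tested, 1 was above and 2 were below in both number 2 libraries. In contrast, forebrain and midbrain genes summed to 55.0, 24.8, 44.7 and 19.3 CPM, with 518, 34, 333 and 6 counts of Emx2 and 0 counts of Dmbx1 in each library. Both number 1 libraries thus held more RNA of the most anterior markers and less Hox RNA.

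Markers of tissues outside the tube were mostly higher in number 1. Limb and body wall genes summed to 345, 179, 286 and 105 CPM (both number 2 libraries below both number 1 libraries for 7 of 8 tested genes, against 31.9% of all genes tested), skeletal muscle genes to 946, 456, 811 and 150 CPM (8 of 9), sclerotome and cartilage genes to 676, 488, 708 and 420 CPM (7 of 9) and surface ectoderm genes to 137, 82.7, 101 and 53.9 CPM (5 of 6, each against the same 31.9%). Urogenital and gut genes summed to 254, 198, 196 and 179 CPM. The hindlimb gene Pitx1 had 275, 13, 158 and 0 counts, and Tbx4 had 0 in all libraries. Among these tissues limb, sclerotome and the tail also transcribe Hox genes of high number. Tail bud genes summed to 7.92, 8.20, 6.03 and 6.88 CPM, with 92, 65, 49 and 46 counts of T, and did not follow the order of paralogues 11 to 13. The part of these tissues, and of the axial extent of the dissection, in the Hox values was not tested.

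**Figure D5:**
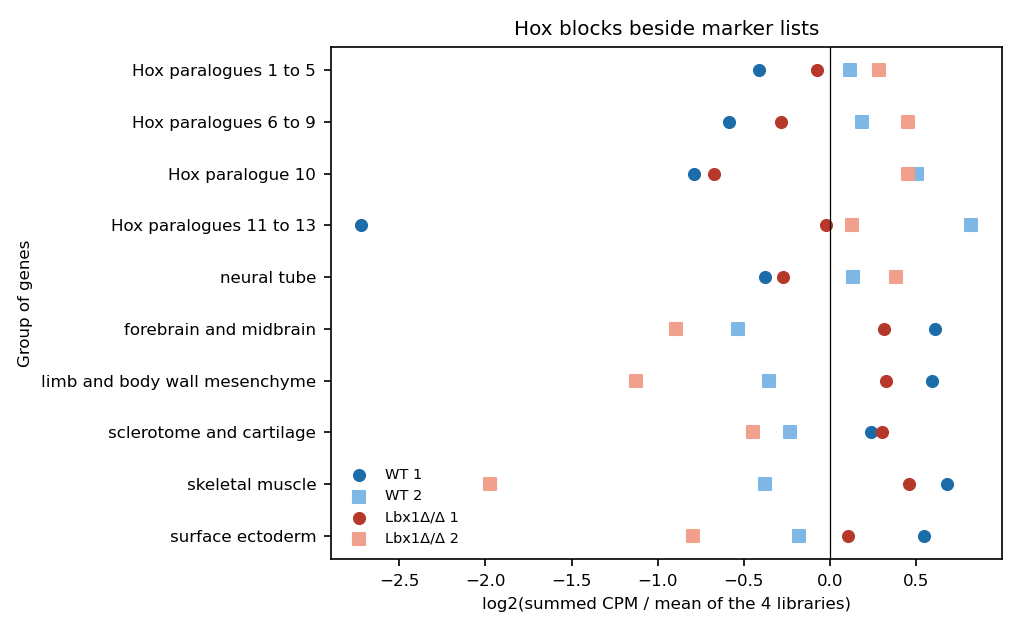
Summed level of 4 blocks of Hox genes and of 6 marker lists in each library, as log2 of the summed CPM over its mean in the 4 libraries; circles are libraries numbered 1, squares libraries numbered 2, blue WT and red libraries labelled Lbx1Δ/Δ. Squares lie to the right for the Hox blocks and neural tube genes and to the left for forebrain and midbrain, limb, cartilage, muscle and ectoderm genes, and WT 1 stands apart to the left for paralogues 11 to 13.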

How the data were processed

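RNA-seq was read from 4 neural tube libraries, 2 labelled WT and 2 labelled Lbx1Δ/Δ. The deposited files hold raw read counts, not normalized, for each RefSeq transcript. Genome build mm9 and the tools TopHat2 2.1.1, featureCounts 4.6.0.1 and edgeR 3.4.3 are named in the submitters' processing notes. Neither the annotation, the strand setting nor the handling of reads shared by transcripts is given in the sources used here. Of 41411 accessions, 41218 were named from a RefSeq table of GRCm38 and 97 from a GENCODE annotation, 96 stayed unnamed, and counts were summed to 24971 genes. GRCm38 is another build than mm9, so no coordinates are printed.

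Levels are CPM of the library total, and RPKM uses the longest annotated transcript. Genotype alone was tested with edgeR 4.0.16 in R 4.3.3 (quasi-likelihood, TMM scaling, filterByExpr with a minimum count of 10 and total of 15, Benjamini-Hochberg adjustment over 10757 genes, two-sided, threshold 0.05), and the test was tried on simulated data. DESeq2 1.42.0, other scalings and filters, a replicate block and leaving out each library were alternatives. Shares of Hox counts were compared with exact permutation tests, with exact binomial intervals. P-values measure only the spread between these pools.

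The members, lists and tests were chosen with earlier results of these data known. Any Hox gene, Evx gene, cluster RNA or Lbx1 may be named, and of each other list up to 4 tested members with the largest fitted difference and up to 3 with the highest mean. Genes named at 0 counts were chosen after their values were seen. The tests of genotype and the lists cover all 4 libraries, and no library was left out of the values given unless named.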

Additional observations from a re-analysis of the deposited data

Results flagged for a closer look

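Paralogues 11 to 13 had opposite differences between the labels in the 2 replicate numbers. Their summed level in the library labelled Lbx1Δ/Δ was 2.70 above that of the WT library on the log2 scale within number 1, and the difference was −0.69 within number 2. In number 1 these were 39.2 CPM against 6.03 CPM, and in number 2 they were 43.4 CPM against 70.3 CPM. The libraries labelled Lbx1Δ/Δ were near each other, and the WT libraries were the highest and the lowest of the 4. The difference between the numbers was not tested, since each held 1 library per label.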

How the results depend on the processing

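No gene was called under the alternatives run, except with the replicate number as a block, which called 92 genes, 0.855% of those tested, among them 3 Hox genes. These were Hoxa6, Hoxb6 and Hoxd4 (edgeR adjusted p = 0.0246, 0.0283 and 0.0354), against 0.27% of all genes called higher. The labels do not say that a number is shared between genotypes, and the libraries numbered 1 deviated together from their group means (r = 0.657 across 10757 genes, which are not independent replicates). The difference in the share of paralogues 10 to 13 was −0.592 percentage points, which a block cannot change, since each number held 1 library per label.

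Leaving out 1 library gave 15 to 36 Hox genes with higher fitted values against 26 with all libraries, counted over the members that passed the filter in each fit, and 14 to 34 over the same 35 members. The summed log2 difference ranged from −0.56 to 1.01 for paralogues 10 to 13 and from −0.77 to 2.78 for paralogues 11 to 13. The share difference of paralogues 10 to 13 ranged from −2.20 to 1.01 percentage points, with 1.01 without WT 2. For paralogues 11 to 13 alone it was 0.105 points, and the median of the members of paralogues 10 to 13 differed by 1.03 on the log2 scale instead of 0.02. The cause of these shifts was not tested. Hoxa4, Hoxb2 and Hoxc13 changed direction with library totals, upper-quartile scaling, a CPM filter or single-transcript genes only, 0 members did with RLE scaling, DESeq2 or no filter, and between 8 and 16 did when 1 library was left out. With the replicate block these 3 and Hoxa11 changed direction, and 30 of 35 members were higher. The low counts of paralogues 11 to 13 in WT 1 limit what can be said of single genes there.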
